A study of Mus musculus with 2 samples.

Results

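Ubiquitin conjugating enzymes (E2 enzymes, Ube2 symbols) and ubiquitin-specific proteases (Usp symbols) were described in mouse CD4 T cells that had been activated with 1 of 2 kinds of antigen-presenting cell (APC). Members were all genes whose platform symbol starts with Ube2, or with Usp and a digit, other than Usp9y, on probe sets annotated to a single gene. The rule used names and no measured value. It gave 79 genes of 17097, made up of 33 Ube2 and 46 Usp symbols, on 175 probe sets. Some symbols taken in by the rule, among them the following, are no active enzyme of this kind. Ube2d-ps is a pseudogene, Usp46os2 an antisense transcript, Ube2cbp an E2-binding ligase, and Usp39 a splicing factor with an inactive protease fold.

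One array held RNA of T cells activated with APC from OX40L-Tg mice, which carry a transgene for the OX40 ligand. The other array held RNA of T cells activated with APC from wild type (Wt) mice. In both, naive Foxp3-negative CD4 T cells of 6-week-old C57/Bl6 mice with a Foxp3-eGFP reporter were stimulated with soluble anti-CD3 for 48 hours and sorted again as living CD4 cells, and the APC were CD3-depleted splenocytes treated with mitomycin C at 50 μg/ml. The promoter of the transgene and the number or pooling of mice are not given in the sources used here. With 1 array per group no value has a replicate, so no difference could be tested, and the number of arrays limits the precision.

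Ubiquitin is attached to proteins by a relay in which an E1 enzyme activates it, an E2 enzyme carries it as a thioester, and an E3 ligase brings the E2 to the substrate. The E2 often decides which chain is built, and with it whether a protein goes to the proteasome or serves as a signalling platform. Usp proteins form the largest family of deubiquitinases and cut ubiquitin off again. A few members handle relatives of ubiquitin, namely SUMO, NEDD8 and the interferon-induced ISG15, for which Ube2l6 is the E2 and Usp18 the protease. In T cells this system sets the turnover of cell cycle regulators and shapes signalling from antigen and costimulatory receptors to NF-kB.

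Values are RMA intensities per probe set on a linear scale, called units here. Each difference is the log2 value with OX40L-Tg APC minus the log2 value with Wt APC. Each gene took its probe set with the highest mean. Probe sets differ in how strongly they bind, so a higher intensity of one gene than of another is not read as more RNA. The floor was the median of each array over all probe sets, 14.7 units, to be reached on at least 1 array. As background served the 95th percentile over 29 genes typical of other organs, which was 36.9 units on the OX40L-Tg APC array and 34.3 units on the Wt APC array. Afp, among these 29, lay above both levels, at 107 units with OX40L-Tg APC and 69.1 units with Wt APC, a difference of 0.63. Of the 10 such genes above the floor, 1 differed by at least 1.5-fold, or 10%, beside 7.21% of all genes. Of the 79 members, 71 were above the floor, and 62 of those were above background on both arrays, 2 on 1 array and 7 on neither. The 8 members under the floor were Ube2u, Ube2ql1, Usp17la, Usp17lc, Usp26, Usp43, Usp46os2 and Usp50, several of which are known from testis or brain. Ube2l6, Ube2e2, Usp13 and Usp27x reached the floor on 1 array only, so part of their difference comes with that choice. Of the T cell markers, all 11 with a value were above background on both arrays. Adipose tissue is named in the labels' RNA protocol, and all 4 adipocyte markers with a value, Adipoq, Fabp4, Lep and Car3, were under the floor, at 11.4 units or less.

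Most members, like most genes, differed little between the arrays. Of the 71 above the floor, 57 differed by less than 1.2-fold, which is 80.3%, against 73.4% of all 10541 genes above the floor. Within 1.5-fold lay 95.8% of the members and 92.8% of all genes, and counts for single roles and lists are to be read beside these shares. A difference of at least 1.5-fold was seen in 3 members, Usp18 and Ube2l6 with the higher value in OX40L-Tg APC cultures and Usp28 with the lower one. That is 4.23% of the members, where 7.21% of all genes passed 1.5-fold in either direction. Upward, 2 members passed beside 3.85% of all genes, and downward 1 member passed beside 3.36%. No member reached 2-fold (0 of 71), a size that 2.72% of all genes reached. The SD of the differences was 0.24 among the members and 0.39 among all genes, and the lowest and highest members were -0.73 and 0.62. Counting only genes above background on both arrays, 82.3% of 62 members and 76.9% of 8041 genes were within 1.2-fold. The SD there was 0.23 among the members and 0.35 among all genes.

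The median difference was 0.03 for 31 Ube2 genes and 0.04 for 40 Usp genes, with 0.02 for all genes. Of the Ube2 genes 19 read higher and 12 lower, or 61.3% higher. Of the Usp genes 24 read higher and 16 lower, or 60.0% higher, and among all genes above the floor 54.0% read higher. Counting only the 67 members above the floor on both arrays, 2 passed 1.5-fold, which is 2.99%, against 6.80% of 9936 genes. The single threshold splits close values. Ube2h at 1.49-fold and Usp3 at 1.45-fold lay just inside it, and Usp18 at 1.51-fold just beyond it. Ube2l6 passed as well, but on values below background on both arrays. RMA had equalised both arrays, so a change in total RNA per cell would leave no trace. In sorted bulk cells, fewer cells of a type and less RNA per cell cannot be told apart.

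**Figure D1:**
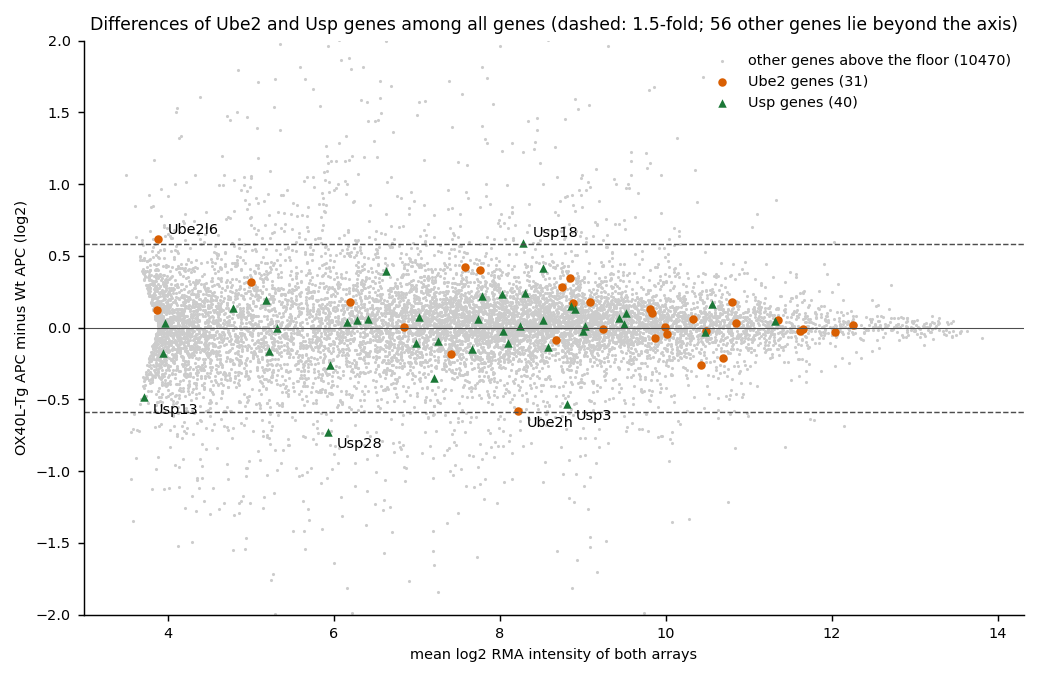
Difference between the arrays (OX40L-Tg APC minus Wt APC, log2) against the mean log2 intensity of both, for 31 Ube2 genes (circles), 40 Usp genes (triangles) and 10470 other genes above the floor (grey). Dashed lines mark 1.5-fold, and 56 other genes lie beyond the axis. The members lie within the central band, with Usp18, Ube2l6 and Usp28 past the dashed lines.

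Usp18 and Ube2l6, the interferon-induced members of the ISG15 cycle, both read higher in OX40L-Tg APC cultures, but only Usp18 was above background. Usp18, which removes ISG15 from proteins and also dampens type I interferon receptor signalling, read 384 units in OX40L-Tg APC cultures and 254 units in Wt APC cultures, a difference of 0.59. It was well above background on both arrays and rests on 1 probe set. After a lowess correction for mean level its difference was 0.57, just under the 1.5-fold line, and with log2(value + 16) it was 0.56. Ube2l6, which charges ISG15 after its E1, read 18.4 units in OX40L-Tg APC cultures and 11.97 units in Wt APC cultures. Both values were below background, so its difference of 0.62 shows no presence of the transcript on either array.

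The rest of the ISG15 cycle did not move as one. Herc6, the ligase of mouse ISG15, read 68.1 units with OX40L-Tg APC and 56.1 units with Wt APC, a difference of 0.28. Uba7, the E1 enzyme of ISG15, read 119 units with OX40L-Tg APC and 137 units with Wt APC, a difference of -0.21. Trim25, an interferon-inducible ligase, differed by -0.10. Isg15 itself is not analysed here.

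Lists of other interferon genes had medians below 0. Among 23 type I interferon genes the median was -0.13, with 2 past 1.5-fold upward and 3 past it downward. Of these 5, Oas1g and Ifit2 were above background on both arrays, 2 of the lower ones on the Wt APC array only, and the other higher one on neither. Ifit2, an antiviral Ifit protein, differed by -1.29, and Oas1g, an oligoadenylate synthase, by 1.44. Cmpk2, a nucleotide kinase, read 16.8 units with OX40L-Tg APC, below background, and 39.2 units with Wt APC. Among 15 interferon-gamma genes the median was -0.75, with 10 past 1.5-fold downward and 0 upward. Past 1.5-fold in either direction were 66.7% of these and 21.7% of the type I list, beside 7.21% of all genes. Iigp1 differed by -1.99 and Gbp7 by -1.46, both interferon-inducible GTPases. Cxcl10, a chemokine, read 35.6 units with OX40L-Tg APC, below background, and 94.4 units with Wt APC. On the same arrays all 6 MHC class II genes of APC were higher, summing to 3596 units with OX40L-Tg APC and 2688 units with Wt APC. Of the 6 B cell markers above the floor, 5 were higher, Fcer2a by 1.00 and Cd79b by 0.92 the most, while Blk differed by -0.15. All 8 B cell markers with a value, Pax5 and Cr2 under the floor among them, summed to 1477 units with OX40L-Tg APC and 965 units with Wt APC. T cell markers, 10 of 11 of them lower, summed to 23226 units with OX40L-Tg APC and 27214 units with Wt APC. Such sums weigh the brightest probe sets of a list most. The part of these other cells in the Usp18 difference was not tested.

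The largest difference of any member in the main setting was that of Usp28, a deubiquitinase of the DNA damage response that is known to stabilise Myc. It read 47.5 units in OX40L-Tg APC cultures and 78.8 units in Wt APC cultures, 1.66-fold lower, on 1 probe set not far above background. With log2(value + 16) it did not pass 1.5-fold, and with the floor at the 75th percentile it was not among the genes kept past it. Its close paralogue Usp25, which acts in innate immune and cytokine receptor signalling, lay on the other side, at 424 units with OX40L-Tg APC and 318 units with Wt APC, a difference of 0.42. Usp3, which removes ubiquitin from histones H2A and H2B, read 373 units with OX40L-Tg APC and 539 units with Wt APC, a difference of -0.53. Its 4 probe sets above the floor lay between -0.53 and -0.42. The one at -0.42 was below background on both arrays, and the others, between -0.53 and -0.48, repeat one another closely.

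Ube2h, the E2 partner of the CTLH (GID) ligase and a gene known for high expression in maturing red cells, was the E2 with the lowest difference. It read 244 units in OX40L-Tg APC cultures and 364 units in Wt APC cultures, a difference of -0.58. All 4 of its probe sets were lower, between -0.84 and -0.34, and 2 of them passed 1.5-fold at -0.84 each. The erythroid marker Hba-a1, an alpha globin gene, read 207 units with OX40L-Tg APC and 1161 units with Wt APC. The other erythroid markers with a value, Alas2, Slc4a1 and Epb42, were below background on both arrays. The sum of the erythroid list, 247 units with OX40L-Tg APC and 1204 units with Wt APC, is therefore mostly that of Hba-a1. The part of erythroid RNA in the Ube2h difference was not tested.

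The promoters of Usp28, Ube2h and Ube2l6 are shown, those of the members with the lowest difference overall and among E2 enzymes, and of the E2 of ISG15. They were taken from the RefSeq table on GRCm38.p6, with 71 promoters of 62 members, Usp18 not among them. Shown are the 250 bases before the gene start, 5′ to 3′ on the strand of the gene, with motif matches in capitals. Usp28 lies at chr9:48985135-48985384 on the plus strand, Ube2h at chr6:30304540-30304789 on the minus strand and Ube2l6 at chr2:84798578-84798827 on the plus strand. Ube2h has a further start at chr6:30243804-30244053, not printed.
Usp28: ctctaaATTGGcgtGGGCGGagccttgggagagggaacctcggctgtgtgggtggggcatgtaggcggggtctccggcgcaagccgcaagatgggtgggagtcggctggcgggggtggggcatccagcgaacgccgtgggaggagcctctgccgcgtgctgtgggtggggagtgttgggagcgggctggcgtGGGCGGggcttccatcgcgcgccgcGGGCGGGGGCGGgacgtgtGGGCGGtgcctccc
Ube2h: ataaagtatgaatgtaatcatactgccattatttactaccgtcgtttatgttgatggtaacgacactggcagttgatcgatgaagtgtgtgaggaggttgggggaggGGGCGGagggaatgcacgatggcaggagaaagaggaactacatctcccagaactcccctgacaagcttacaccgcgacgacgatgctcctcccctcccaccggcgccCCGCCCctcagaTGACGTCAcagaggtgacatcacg
Ube2l6: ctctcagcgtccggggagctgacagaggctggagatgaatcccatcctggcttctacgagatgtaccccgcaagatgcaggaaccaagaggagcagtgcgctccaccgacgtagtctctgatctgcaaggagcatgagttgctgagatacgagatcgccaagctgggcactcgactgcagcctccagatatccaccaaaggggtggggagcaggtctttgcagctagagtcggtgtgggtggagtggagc

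Motifs were searched on both strands. The core of the interferon-stimulated response element, GAAANNGAAA, was in 0 of these 71 promoters, which do not include that of Usp18, and in 2.98% of all 32851 promoters of this length. The gamma-activated sequence TTCNNNGAA was in 8 member promoters, or 11.3%, and in 7.02% of all. Among these 8 were those of Usp17la, Usp17lc, Usp26 and Usp50, genes under the floor. The cyclic AMP response element TGACGTCA was in 1 member promoter, that of Ube2h, or 1.41%, and in 1.55% of all. The CCAAT box, CCAAT, was in 16 member promoters, or 22.5%, and in 33.8% of all, and the printed Usp28 promoter holds 1. The GC box GGGCGG was in 48 member promoters, or 67.6%, and in 32.7% of all, with 5 matches in Usp28 and 2 in Ube2h. The promoters of all genes include those of noncoding genes, and these matches are descriptions of letters, not of binding.

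Among 5 E2 enzymes of cell division and DNA repair, Ube2c, Ube2s and Ube2a read nearly alike in both cultures, while Ube2t read higher and Ube2b lower. Within 1.2-fold were 4 of the 5, or 80.0%, beside 73.4% of all genes. Ube2c, which starts ubiquitin chains for the anaphase-promoting complex, read 3107 units with OX40L-Tg APC and 3163 units with Wt APC. Ube2s, which extends those chains, read 4185 units with OX40L-Tg APC and 4266 units with Wt APC, a difference of -0.03. Ube2t, the E2 of the Fanconi anaemia pathway, was the highest of this group by difference, at 475 units with OX40L-Tg APC and 391 units with Wt APC. Its paired protease Usp1, which takes ubiquitin off FANCD2 and PCNA, read 2586 units with OX40L-Tg APC and 2508 units with Wt APC. The RAD6 paralogues Ube2a and Ube2b, E2 enzymes of histone H2B and of DNA damage tolerance, differed by 0.06 and -0.26. Ube2b read 1258 units with OX40L-Tg APC and 1509 units with Wt APC, and both of its probe sets above the floor were lower. The anaphase-promoting complex itself had 14 of 14 genes within 1.5-fold, beside 92.8% of all genes, a median of 0.03 and a range of -0.20, for Anapc13, to 0.17, for Anapc11. Anapc7 differed by 0.15.

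The E2 that builds chains linked through lysine 63 of ubiquitin, a signal used on the way to NF-kB, and its partners differed by at most 0.18. The catalytic Ube2n read 1428 units with OX40L-Tg APC and 1448 units with Wt APC. Its partner Ube2v1 read 1896 units with OX40L-Tg APC and 1678 units with Wt APC, a difference of 0.18. The alternative partner Ube2v2, which serves DNA repair, read 916 units with OX40L-Tg APC and 965 units with Wt APC. All 3 were within 1.2-fold, as were 73.4% of all genes.

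The broadly acting Ube2d and Ube2e enzymes, which work with many RING ligases, gave some of the closest pairs. Ube2d3 read 4945 units with OX40L-Tg APC and 4882 units with Wt APC, and its 7 probe sets lay between -0.07 and 0.03. Ube2e1 read 1536 units with OX40L-Tg APC and 1775 units with Wt APC, a difference of -0.21, and Ube2d1 differed by -0.19. Ube2w, which attaches ubiquitin to the amino terminus of proteins, read 223 units with OX40L-Tg APC and 166 units with Wt APC. Its difference was 0.43, with 0.25 in the other probe set above the floor. E2 enzymes that serve protein disposal at the endoplasmic reticulum were within 1.2-fold in 4 of 4 cases, beside the same 73.4% of all genes. Ube2g2 differed by 0.17 and Ube2j2 by 0.13, while Ube2j1 and Ube2g1 differed by -0.09 and 0.01.

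Among the remaining E2 enzymes, Ube2f, which carries NEDD8 to cullin-5 ligases, read 519.7 units in OX40L-Tg APC cultures and 409 units in Wt APC cultures. All 4 of its probe sets were higher, between 0.17 and 0.34. Ube2q2, a less studied E2, read 250.2 units with OX40L-Tg APC and 190 units with Wt APC, a difference of 0.40 on 1 probe set. Its paralogue Ube2q1 differed by 0.10, and by 0.31 in its other probe set. Ube2l3, the E2 of HECT and RBR ligases and the closest relative of Ube2l6, read 3211 units with OX40L-Tg APC and 3238 units with Wt APC, with all 4 probe sets between -0.09 and -0.01. Ube2k, an E2 that builds chains linked through lysine 48, read 2671 units with OX40L-Tg APC and 2570 units with Wt APC. The pseudogene Ube2d-ps was below background on both arrays, at 35.8 units with OX40L-Tg APC and 28.8 units with Wt APC, and its probes may also bind transcripts of its parent genes.

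Of 14 Usp genes that act in DNA repair, on chromatin or on p53, 9 read higher and 5 lower. Usp28 alone passed 1.5-fold, which is 7.14% of them and close to the 7.21% of all genes. The paralogues Usp12 and Usp46, both switched on by the WD-repeat proteins Wdr48 and Wdr20, were on the higher side. Usp12 read 238 units with OX40L-Tg APC and 204 units with Wt APC, and its 3 probe sets lay between 0.22 and 0.38. Usp46 read 114 units with OX40L-Tg APC and 86.7 units with Wt APC, and its 2 probe sets gave differences of 0.40 and 0.13. Wdr48 and Wdr20 differed by 0.16 and -0.03. Dmwd, a relative of Wdr20 that also joins these complexes, read 359 units with OX40L-Tg APC and 147 units with Wt APC, a difference of 1.29 on 1 probe set. The other 11 of the 12 genes on the list of Usp partners were within 1.5-fold, or 91.7%, close to the 92.8% of all genes. Stambp had the lowest difference among them, -0.33.

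Usp22, the protease of the SAGA histone acetylase complex, read 345 units with OX40L-Tg APC and 292 units with Wt APC. Its other probe set showed a difference of 0.00, so its probe sets do not repeat each other. Usp27x, which can take the place of Usp22, was below background on both arrays. Usp36, a nucleolar protease, read 283 units with OX40L-Tg APC and 241 units with Wt APC, with 0.23 and 0.30 in its probe sets. Usp7, which keeps MDM2 and p53 from degradation and supports Foxp3 in regulatory T cells, read 1407 units with OX40L-Tg APC and 1436 units with Wt APC. Its 6 probe sets ran from -0.14 to 0.24.

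Proteases tied to the proteasome and to free chains differed by little where they were above background. Usp14, which trims chains on the proteasome, read 765 units with OX40L-Tg APC and 713 units with Wt APC, and Usp5, which recycles free chains, differed by 0.06. Usp13, a paralogue of Usp5, was below background on both arrays, at 11.1 units with OX40L-Tg APC and 15.6 units with Wt APC. Usp genes of endosomes, endoplasmic reticulum and mitochondria read lower in 6 of 7 cases, but all 7 were within 1.2-fold, as most genes were, with a median of -0.09. Among them Usp8, which acts on receptors sorted by endosomes, differed by -0.14 and Usp32, a Golgi and endosome protein, by -0.15. Usp30, which opposes mitophagy, was the higher one, at 0.06, but its other probe set gave -0.08. Among all 10541 genes above the floor, 4851 read lower.

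Usp genes placed in signalling pathways were also split. Besides Usp25, Usp15, a regulator of TGF-beta and NF-kB signalling in T cells, read 732 units with OX40L-Tg APC and 719 units with Wt APC. Usp2, a protease with a strong circadian rhythm, read 56.6 units with OX40L-Tg APC and 67.8 units with Wt APC, with -0.26 and -0.01 in its 2 probe sets. Usp4, a paralogue of Usp15, read 35.3 units with OX40L-Tg APC, below background, and 39.5 units with Wt APC, at least 1.07-fold lower against the background level. Of the remaining Usp symbols, Usp38, known to restrain antiviral signalling, read 131 units with OX40L-Tg APC and 167 units with Wt APC, a difference of -0.35. The splicing factor Usp39 read 1598 units with OX40L-Tg APC and 1424 units with Wt APC, with 0.17 and 0.22 in its probe sets. Usp54 read 39.0 units with OX40L-Tg APC and 34.0 units with Wt APC, the Wt APC value being below background. Against the background level it read at least 1.13-fold higher. The background levels were 36.9 and 34.3 units, so both of its values lay near them.

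Probe sets of one gene were the only repeated measure. Of the 145 member probe sets above the floor, 5 passed 1.5-fold, or 3.45%, against 6.69% of all 16981 probe sets with 1 symbol. Those 5 were the single probe sets of Usp18, Ube2l6 and Usp28 and 2 of Ube2h. In 42 members with at least 2 probe sets above the floor, 30 had all of them on one side. The same share over all genes is not given here, so no agreement particular to the members is read from this count. The SD between probe sets of a member had a median of 0.06 and a range of 0.01 to 0.24, with Ube2h at the upper end. Some of the probe sets counted here were above the floor but below background. The 29 members with 1 such probe set, Usp18, Ube2l6 and Usp28 among them, have no check of this kind. Probe sets share the RNA and the array, so their agreement says nothing about the spread between cultures.

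**Figure D2:**
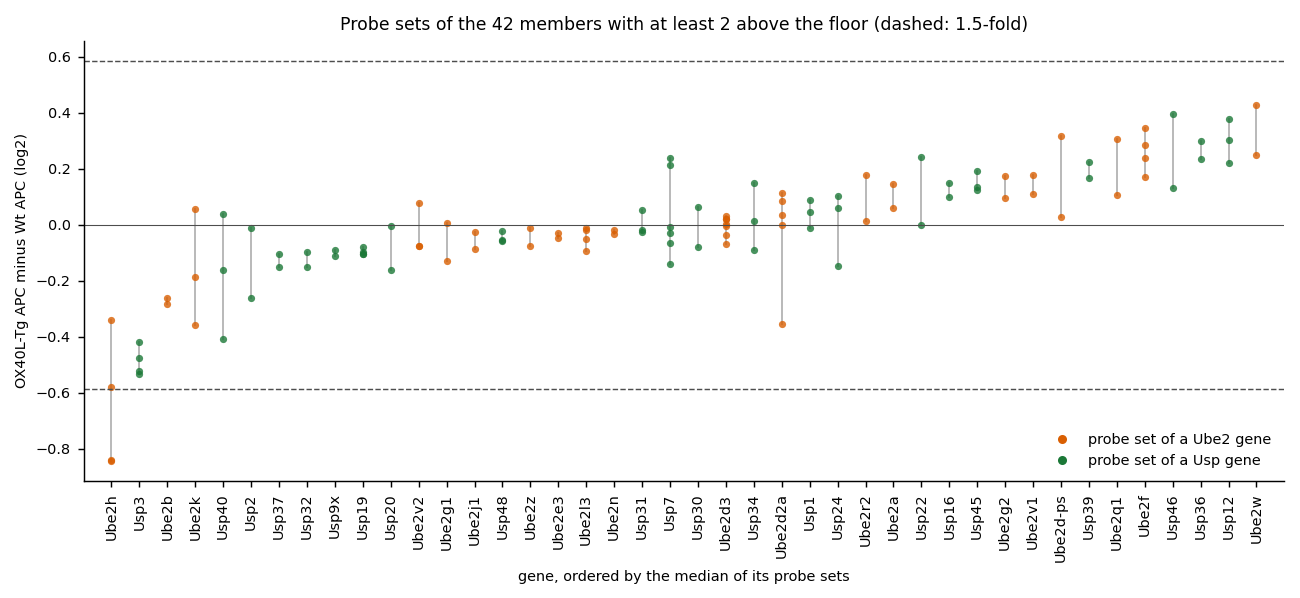
Difference between the arrays (OX40L-Tg APC minus Wt APC, log2) for each probe set above the floor of the 42 members with at least 2. Points are probe sets, grey lines join those of a gene and dashed lines mark 1.5-fold. Ube2h and Usp3 stand lowest with every probe set below 0, and Ube2w, Usp12, Usp36, Usp46 and Ube2f are at the upper end with every probe set above 0.

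Some ligases and deubiquitinases of other families differed by more than any member. The 30 deubiquitinases without a Usp name had a median of 0.03, with 2 past 1.5-fold upward and 1 downward. Tnfaip3, which encodes A20, a brake on NF-kB, read 1291 units with OX40L-Tg APC and 598 units with Wt APC, a difference of 1.11. Mindy1, which trims lysine 48 chains, differed by 0.79, and Otud1, of the ovarian tumour family, was below background on both arrays. The 19 ligases and adaptors known in T cells had a median of 0.14, with 2 past 1.5-fold upward and 1 downward. Past 1.5-fold in either direction were 15.8% of these and 10% of the 30 deubiquitinases, beside 7.21% of all genes. Rnf19b, an RBR ligase known from cytotoxic lymphocytes, read 1779.9 units with OX40L-Tg APC and 712 units with Wt APC. Peli1, a ligase of Toll-like and T cell receptor signalling, differed by 0.77, and Cblb, which raises the threshold of T cell activation, by -0.65.

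The 16 core genes of cullin-RING ligases had a median of 0.05, with 2 past 1.5-fold upward and 0 downward, which is 12.5% beside 7.21% of all genes. The higher ones were Cul7, at 0.71 on the log2 scale, and Fbxw7, the substrate receptor for Myc and cyclin E, at 0.60, while Cul4b differed by -0.32. The first steps of the relay are given beside the 92.8% of all genes within 1.5-fold and the 73.4% within 1.2-fold. All 6 E1 enzymes were within 1.5-fold with a median of -0.03, among them Atg7 at -0.32 and the NEDD8 E1 subunit Nae1 at 0.14. All 5 ubiquitin and ubiquitin-like genes with a value were within 1.2-fold with a median of 0.08, with Nedd8 at 0.11, Sumo3 at 0.08 and Ufm1 at 0.08. All 7 E2-like genes of other names were within 1.5-fold with a median of 0.04, with Atg10 at -0.33, Aktip at -0.21 and Tsg101 at 0.10. All 7 proteases of SUMO and NEDD8 were within 1.2-fold with a median of 0.02, with Senp2 at -0.23, Senp8 at -0.20 and Senp1 at 0.18.

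**Figure D3:**
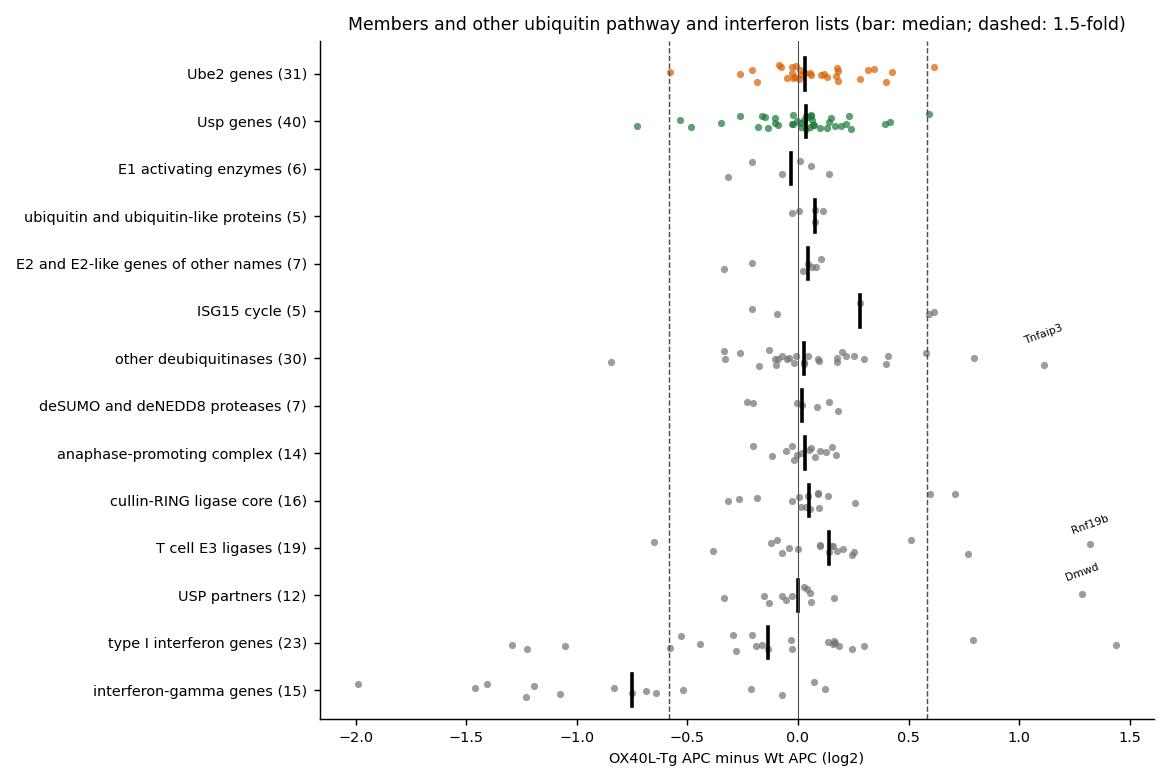
Differences between the arrays (OX40L-Tg APC minus Wt APC, log2) for Ube2 genes, Usp genes and lists of other ubiquitin pathway and interferon genes, with the number above the floor in brackets. Points are genes, bars medians and dashed lines 1.5-fold, and genes of the ubiquitin lists past 1 on this scale are named. Tnfaip3, Rnf19b and Dmwd lie beyond every Ube2 and Usp gene.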

How the data were processed

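The labels give 1 Affymetrix HT MG-430 PM array for each kind of APC. Per the submitters' processing notes the authors used RMA, and the deposited intensity values are on a linear scale from 4.69 to 14686 units. The RMA version and the arrays normalized together are not given in the sources used here.

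log2 was taken, as planned for linear values. Of 45141 probe sets, 28898 had 1 symbol, 551 several and 15692 none in the platform annotation. RefSeq's GRCm38.p6 gene table changed 0 symbols. Some E2 and Usp genes had no single-symbol probe set in the tables used and are not analysed here.

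Members, lists and thresholds were chosen with earlier results of these data known. The naming rule took the 12 members above the floor with the largest difference in each direction, Ube2l6, Usp18, the 3 of highest intensity in each family (to pick names only), up to 2 per role and up to 3 per list. Members outside it, such as the close relatives of named genes, were named after their values were seen. Where 1 value was below background, the fold is a lower bound against that level, and with 1 array per group this bound carries no error. Calculations used Python 3.11.15, numpy 2.4.6, pandas 2.3.3, statsmodels 0.14.6 and matplotlib 3.10.9, and were tested on simulated data.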

Additional observations from a re-analysis of the deposited data

How the results depend on the processing

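There were 7 alternatives for the probe set of a gene, the floor, the log scale and a lowess correction, and the spread used to judge a shift was the median SD between probe sets of a member, 0.06. No member reached 2-fold under any of them. The number of members at least 1.5-fold apart, 3 as reported, was 1 (Usp18) with the floor at the 75th percentile, where 53 members were tested and 6.38% of all genes passed, and 0 with log2(value + 16), where 5.17% of all genes passed. It was 2 with the floor at the background level, which left out Ube2l6, beside 7.69% of all genes, and 4 with the mean of all probe sets, which added Ube2h, beside 6.25%. After the lowess correction it was 3 with Ube2h in place of Usp18, beside 7.21% of all genes. The difference of Ube2l6 was 0.30 with log2(value + 16), a scale that by its construction shrinks low values, and Usp18 ranged from 0.56 to 0.59. The medians ranged from -0.01 to 0.04 for Ube2 genes and from 0.01 to 0.04 for Usp genes, so no direction is read from them. No paired analysis was possible because there is 1 array per group.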

Other observations

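Probe sets that the annotation pairs with several symbols were kept out of the members. There were 7 of these that include a Usp symbol, and 6 of them were above the floor. Their differences lay between -0.81 and 0.03. Those shared by Usp14 and Thoc1 differed by 0.00, -0.07 and 0.03, and those shared by Usp47 and Gm3960 by -0.10 and -0.19. The lowest was on a probe set shared by Usp49 and Med20 that read 26.9 units with OX40L-Tg APC, below background, and 47.2 units with Wt APC. Which of its genes this probe set measures cannot be told apart.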
